A study of Homo sapiens with 2 samples.

Results

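Peaks of H3K27ac, the acetylated form of lysine 27 on histone H3 that is found at promoters and enhancers in use, were examined in LOUCY cells over 8 gene clusters best known from tissues other than blood. LOUCY is an established human T-cell acute lymphoblastic leukaemia (T-ALL) line with an immature T-cell phenotype. The clusters were set by hg19 coordinates and chosen with earlier results of these data known. They comprised the epidermal differentiation genes (152.05 to 153.2 Mb of chromosome 1) and the type II keratins (52.56 to 53.3 Mb of chromosome 12). Next came the type I keratins (38.8 to 39.8 Mb of chromosome 17) and olfactory receptors at 1q44 (247.6 to 248.9 Mb of chromosome 1). Further receptors lay at 11p15.4 (4.35 to 5.22 Mb of chromosome 11) and at 11q11 to 11q12.1 (55 to 56.6 Mb of chromosome 11). The last were the protocadherins (140.16 to 140.9 Mb of chromosome 5) and the UGT2 genes (69.3 to 70.52 Mb of chromosome 4). Of the 52203 peaks in the genome, 71 touched a cluster by 1 bp or more. The clusters added up to 8.62 Mb on 6 chromosomes, or 0.284% of the genome, and held 0.136% of the peaks. The series consisted of 1 H3K27ac library and 1 library of input DNA from LOUCY cells, a single line with no replicate and no agent named in the labels, so every value describes these libraries and no difference was tested. The ChIP library had 62626946 aligned tags and the input library 74212738. The bands of the T-cell receptor beta genes (7q34) and alpha and delta genes (14q11.2) held 131 and 165 peaks. The strongest of each band ranked 2 and 17 of all peaks by fold enrichment, with folds of 26.4 and 19.0. These are the highest values of whole bands and no peak was placed in a receptor gene, so they do not test the lineage label.

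The clusters arose by repeated duplication, and each encodes the machinery of a specialised cell. The epidermal differentiation genes encode the proteins of the cornified layer of skin, such as filaggrin (FLG), involucrin (IVL), the late cornified envelope proteins (LCE) and the small proline-rich proteins (SPRR). Type I and type II keratins pair to build the intermediate filaments of epithelia and hair, and the keratin-associated proteins (KRTAP) form the matrix of the hair shaft. Each olfactory sensory neuron expresses a single olfactory receptor allele, and most of these genes are silent in other cells. The clustered protocadherins are adhesion molecules by which neurons tell self from non-self. UGT2 enzymes attach glucuronic acid to steroids, bile acids and drugs, mainly in liver.

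In the order of the reference gene table, the families and the genes among them were as follows. The epidermal genes ran from TCHHL1 to LORICRIN (44 protein-coding genes), the type II keratins from KRT80 to KRT8 (26) and the type I keratins from KRT222 to KRT17 (28, with 34 KRTAP genes among them). Olfactory receptors ran from OR2B11 to OR14I1 at 1q44 (43), from OR52B4 to OR51V1 at 11p15.4 (26) and from OR4A16 to OR5AK2 at 11q11 to 11q12.1 (46). The protocadherins comprised 15 alpha, 16 beta and 22 gamma genes from PCDHA1 to PCDHGC5, and the UGT2 genes ran from UGT2B17 to UGT2A2 (10). A few genes whose symbols were not counted with these families stand between them in that order. Between the first and the last family member, the protein-coding ones are SLC25A2, a mitochondrial carrier, and TAF7, a subunit of the general transcription factor TFIID, among the protocadherins. GCSAML and TRIM58 stand at 1q44, TRIM21, TRIM68 and the protease gene MMP26 at 11p15.4, TRIM51 at 11q11 to 11q12.1 and KPLCE among the epidermal genes. Families were told by gene symbol alone, so the absence of KPLCE from the 44 does not make it a gene of another family. Genes of other families between the edge of a cluster's window and its first or last family member were not listed. The table is of the GRCh38 build and the peaks are in hg19, so no peak was assigned to a gene by it.

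The promoters of these families are poor in the CG dinucleotide, with the protocadherins less so. CG dinucleotides were counted in the 300-base reference promoters (250 bases before to 50 after the start, RefSeq, GRCh38.p14), using the promoter furthest 5' of each gene. The median was 22 in 15842 protein-coding promoters (interquartile range 8 to 32). It was 2 in the 40 epidermal promoters with a sequence, 2 in 33 KRTAP promoters, and 2, 1 and 1 in the olfactory receptors of 1q44 (36 promoters), 11p15.4 (21) and 11q11 to 11q12.1 (43). It was 7 in 13 alpha, 7.5 in 14 beta and 7 in 20 gamma protocadherins. Promoters with at most 6 CG dinucleotides made up 21.7% of all protein-coding promoters, 100% of the epidermal and of both chromosome 11 receptor families, 97.2% at 1q44 and 38.5% to 45% of the protocadherin families. The letters TATAAA, on either strand and anywhere in the 300 bases, were in 9.75% of all protein-coding promoters. They were in 62.5% of the epidermal, 87.9% of the KRTAP, 34.9% to 50% of the olfactory receptor and 7.14% to 23.1% of the protocadherin promoters. The median share of G and C was 62.7% in all protein-coding promoters, 50.7% in the epidermal and 42% in the KRTAP promoters. It was 33.3% to 37.2% in the olfactory receptor and 37.3% to 42% in the protocadherin families. How far this base composition accounts for the CG numbers and the TATAAA shares was not tested. For the type II keratins (14 of 26 genes with a sequence), type I keratins (20 of 28) and UGT2 genes (7 of 10) too few promoters were at hand, and the comparison is void for them. These letters describe the reference sequence and not the peaks.

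**Figure D1:**
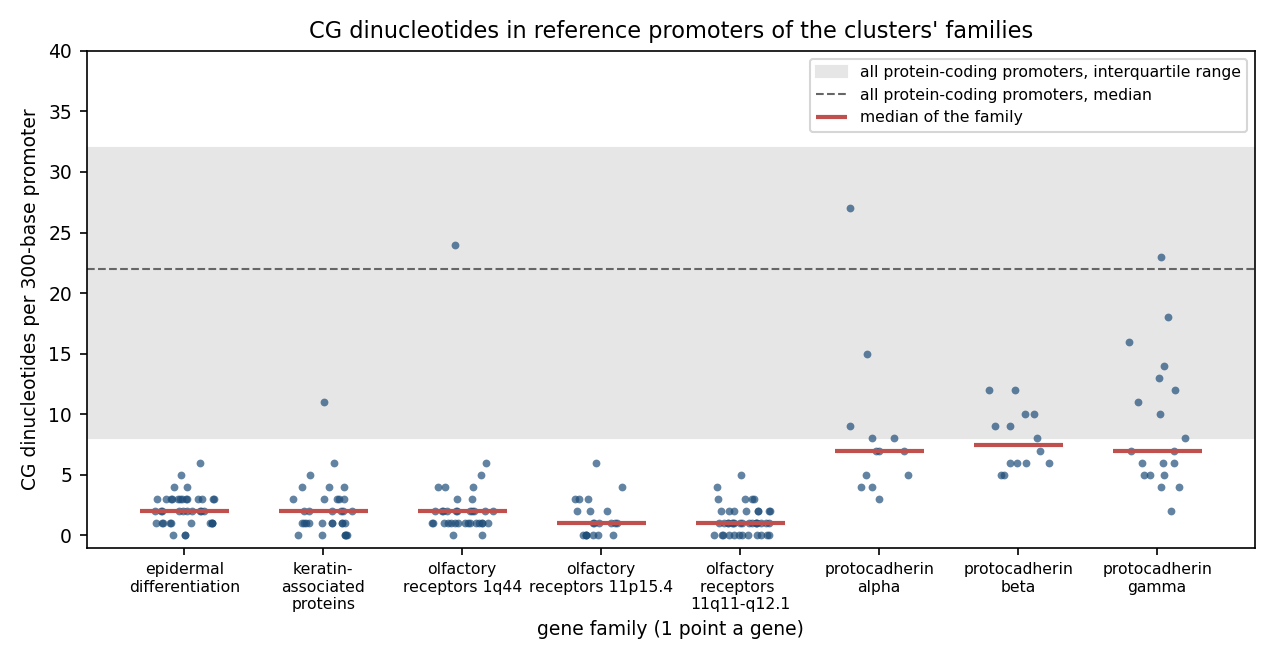
CG dinucleotides per 300-base reference promoter (vertical axis), with 1 point for each gene of the families with a promoter for at least 80% of their genes (horizontal axis). The red bars are family medians, between 1 and 2 for skin, hair and olfactory genes and between 7 and 7.5 for protocadherins, and the dashed line is the median of all protein-coding promoters, 22.

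Reference promoters are shown for KRT85, the gene of the clusters with an hg19 position at hand, and for a gene at the median CG number of the family with the fewest peaks per Mb (OR4C6) and of the gamma protocadherins (PCDHGA9), so that a CG-poor and a less poor promoter can be compared. Capitals mark CG, and would mark TATAAA or its reverse complement TTTATA, which are in none of these 3. The promoters lie on chromosome 12 (52367432 to 52367731, minus strand), chromosome 11 (55661951 to 55662250, plus strand) and chromosome 5 (141402528 to 141402827, plus strand) of GRCh38.p14. They hold 7, 1 and 7 CG dinucleotides.
KRT85: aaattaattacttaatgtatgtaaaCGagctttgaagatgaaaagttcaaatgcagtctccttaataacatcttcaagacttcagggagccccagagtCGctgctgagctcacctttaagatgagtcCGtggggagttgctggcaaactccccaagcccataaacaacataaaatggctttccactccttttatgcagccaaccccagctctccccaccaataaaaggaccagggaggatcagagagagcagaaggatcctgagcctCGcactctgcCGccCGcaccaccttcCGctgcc
OR4C6: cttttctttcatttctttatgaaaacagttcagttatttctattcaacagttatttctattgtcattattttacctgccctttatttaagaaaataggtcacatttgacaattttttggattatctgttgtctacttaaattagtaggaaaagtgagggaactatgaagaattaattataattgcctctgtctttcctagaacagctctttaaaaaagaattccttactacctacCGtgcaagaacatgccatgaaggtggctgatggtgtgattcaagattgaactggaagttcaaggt
PCDHGA9: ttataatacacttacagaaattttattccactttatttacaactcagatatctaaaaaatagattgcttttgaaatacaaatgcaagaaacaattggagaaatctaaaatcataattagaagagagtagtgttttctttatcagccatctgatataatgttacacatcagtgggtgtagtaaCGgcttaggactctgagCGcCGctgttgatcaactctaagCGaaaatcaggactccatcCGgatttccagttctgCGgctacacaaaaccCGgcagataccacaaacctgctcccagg
Counted from the 5' end, the first CG begins at base 26 in KRT85, base 236 in OR4C6 and base 183 in PCDHGA9, and the last 50 bases follow the start site.

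Over all 8 clusters H3K27ac peaks were sparse, with 8.24 peaks per Mb against 17.2 in the genome, and peaks covered 2.63% of the bases against 4.90%. The type II keratins were the exception. They had 33.8 peaks per Mb and 10.9% of their bases under peaks, and held 25 of the 71 peaks (35.2%). Without them, the other clusters had 46 peaks in 7.88 Mb, or 5.84 per Mb, and a covered share of 1.84%. The cluster with the fewest peaks per Mb was that of the olfactory receptors at 11q11 to 11q12.1, with 1.25. It was followed by the UGT2 genes (4.92), the protocadherins (5.41), the olfactory receptors at 11p15.4 (5.75) and at 1q44 (6.15), the epidermal differentiation genes (9.57) and the type I keratins (10.0). Trimmed by 50 kb at either edge, the UGT2 cluster had 2.68 peaks per Mb and a covered share of 0.712%, against 1.09% untrimmed. Exact 95% Poisson intervals on the peak number, which cover counting error only and take neighbouring peaks as independent, lay below 17.2 in 6 clusters. Among the 6, the epidermal interval (4.77 to 17.1) ended just below the genome value. As 8 of the 11 epidermal peaks lay within 101 kb, independence is doubtful there. The interval of the type I keratins (4.80 to 18.4) held the genome value, and that of the type II keratins (21.9 to 49.9) lay above it. Neighbours in this order had overlapping intervals, except the type I and type II keratins.

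**Figure D2:**
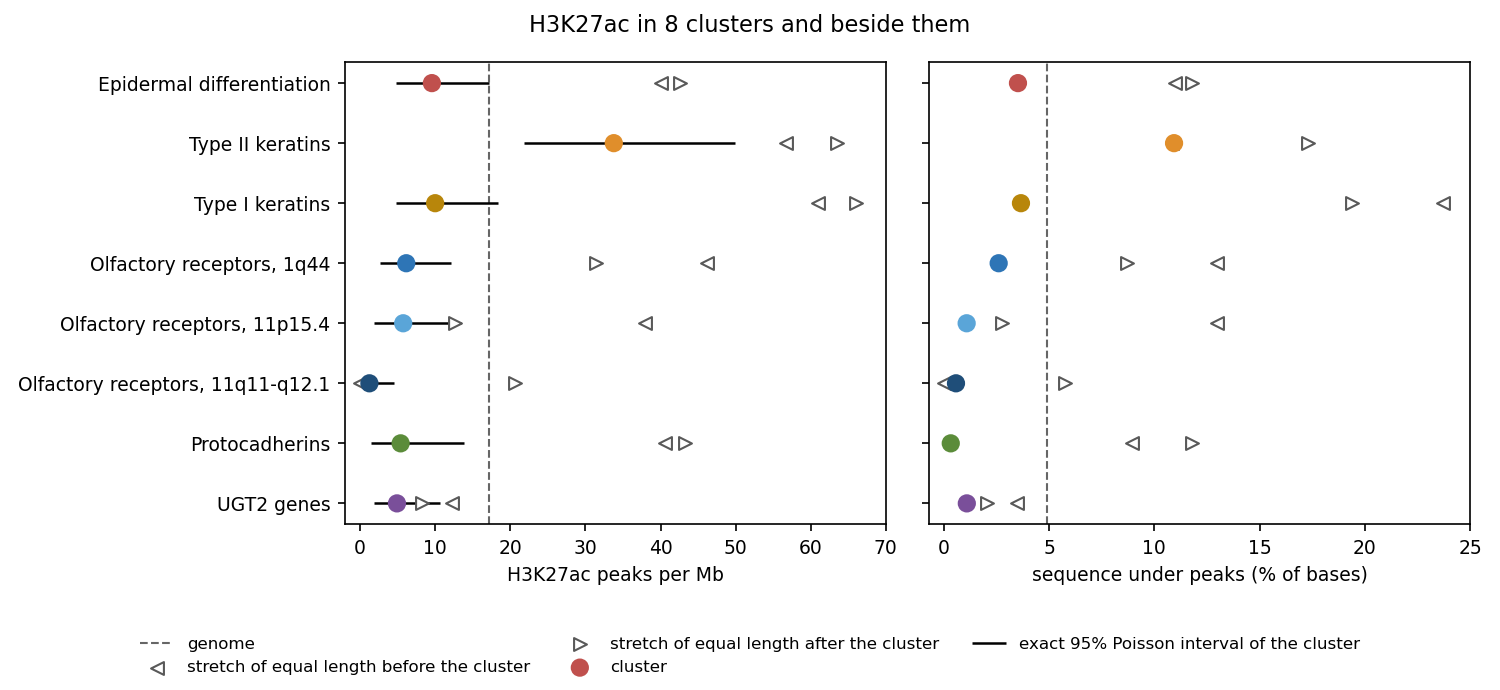
H3K27ac peaks per Mb (left) and the percentage of bases under peaks (right) in each cluster (filled circles, with exact 95% Poisson intervals on the left), in the stretches of equal length before and after it on the chromosome (open triangles) and in the genome (dashed lines, 17.2 per Mb and 4.90%). The type II keratins lie right of the dashed lines and the other 7 clusters left of them; on the right, the triangle before the type II keratins is behind their circle (10.9% in both).

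The order by covered share differed from that by peak number. The protocadherins had the smallest share, 0.327%. Their 4 peaks were 374 to 843 bp wide, with a median of 603 bp against 1670 bp for all peaks. The shares were 0.576% at 11q11 to 11q12.1, 1.08% at 11p15.4, 1.09% in the UGT2 genes, 2.60% at 1q44, 3.52% in the epidermal genes and 3.66% in the type I keratins. The covered share of the protocadherins was 0.0668 times that of the genome, and the covered share of the type II keratins 2.23 times.

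Low density is common along the genome, so each cluster was set against all windows of its own length, laid end to end without the centromeric and heterochromatic bands. As few peaks as in the cluster were found in 36.3% of such windows for the epidermal genes, 38.6% for the type I keratins, 26.7% for 1q44, 29.8% for 11p15.4, 31.2% for the protocadherins and 23.8% for the UGT2 genes. For the olfactory receptors at 11q11 to 11q12.1 the share was 8.93%. As many peaks as in the type II keratins were found in 19.8% of windows. A covered share as small as that of the cluster was found in 48% of windows for the epidermal genes, 50% for the type I keratins, 38.1% for 1q44, 28.1% for 11p15.4, 14.1% for 11q11 to 11q12.1, 19.4% for the protocadherins and 23.4% for the UGT2 genes. Windows of 1 Mb had a median of 15 peaks per Mb (interquartile range 5 to 29). Sparse stretches of this length are therefore common, and at 11q11 to 11q12.1 part of the cluster lies in a band of the kind that the windows left out.

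The stretches beside the clusters held more peaks in most cases. Of the 16 stretches of equal length directly before and after the clusters, 15 had more peaks per Mb than the cluster, 14 had a larger covered share, and 12 lay above the genome value of 17.2. How often a stretch beside any sparse window is denser was not computed, so the count is a description of these clusters alone. The type I keratins, with 10.0 peaks per Mb, lay between stretches with 61 and 66. The epidermal genes (9.57) lay between 40 and 42.6, and the protocadherins (5.41) between 40.5 and 43.2. The type II keratins (33.8) were also below both sides (56.8 and 63.5), although above the genome. The olfactory receptors at 1q44 (6.15) lay after a stretch with 46.2, and the stretch behind them, cut to 0.351 Mb by the end of the chromosome, had 31.4. Those at 11p15.4 (5.75) had 37.9 before and 12.6 after. The UGT2 genes (4.92) lay in a sparse region, with 12.3 before and 8.20 after, on a chromosome with 12.4. At 11q11 to 11q12.1 the stretch before, in centromeric bands, had 0 peaks and the stretch after had 20.6. Of the 1.6 Mb of that cluster, 0.7 Mb lies in a band stained as centromere. Over the other 0.9 Mb the density was 2.22 peaks per Mb. How well tags could be aligned in these repeated families was not tested.

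Peaks inside the clusters stood together and left long empty stretches. Outside centromeric and heterochromatic bands, 50 of the 77 full 100 kb bins of the clusters (64.9%) had no peak, against 44.9% of such bins of the genome. With the centromeric part of 11q11 it was 57 of 84. The bins without a peak were 15 of 16 at 11q11 to 11q12.1, 6 of 7 in the protocadherins, 9 of 12 in the UGT2 genes, 9 of 13 at 1q44, 5 of 8 at 11p15.4, 6 of 11 in the epidermal genes, 6 of 10 in the type I keratins and 1 of 7 in the type II keratins. The longest empty stretch within a cluster spanned 1.23 Mb at 11q11 to 11q12.1 (55000001 to 56228606), of which 0.7 Mb is in the centromeric band. At 1q44 it spanned 829 kb (248071322 to the end of the cluster), in the UGT2 genes 680 kb (69361190 to 70040857), at 11p15.4 590 kb (4630141 to the end), in the protocadherins 540 kb (the start to 140699880) and in the epidermal genes 529 kb (152670729 to the end). It was 333 kb in the type I and 194 kb in the type II keratins. At 1q44 the gap ran on past the edge of the cluster to 1048 kb in all. Gaps also ran past the edge at 11p15.4 (614 kb in all), in the protocadherins (608 kb), the epidermal genes (593 kb) and the type I keratins (337 kb). Of 51875 gaps of the genome clear of heterochromatic bands, 430 were at least as long as the 829 kb at 1q44. For the 680 kb of the UGT2 genes it was 571, for the 540 kb of the protocadherins 772 and for the 194 kb of the type II keratins 2404. These counts take the stretch inside the cluster, so at 1q44 and in the protocadherins they are upper limits for the whole gap. Whether peaks group more here than elsewhere was not tested, nor how far the lower peak density accounts for the empty bins.

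**Figure D3:**
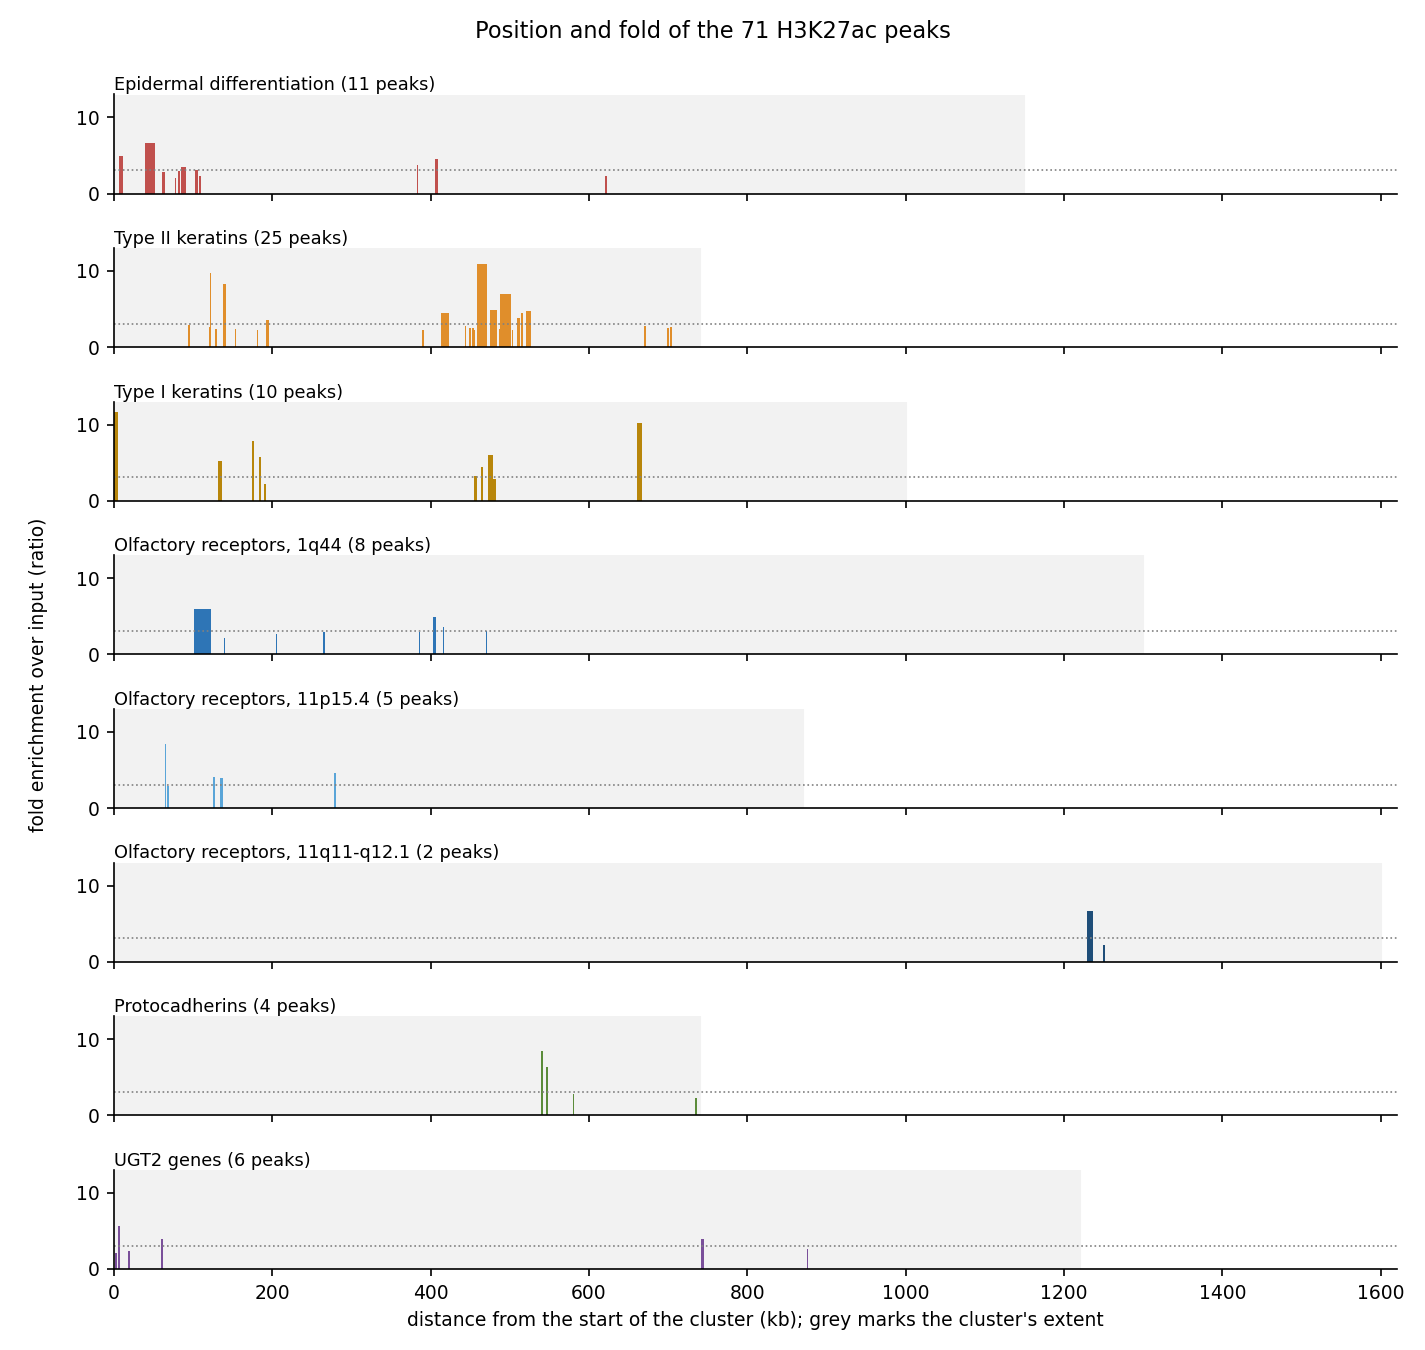
Each row is a cluster; the horizontal axis is the distance from its start in kb, bars are the 71 H3K27ac peaks, their height the fold enrichment over input and their width the peak width (peaks under 2 kb are drawn 2 kb wide), and the dotted line is the median fold of all peaks, 3.08. The peaks of the type II keratins form a dense block, while the clusters of olfactory receptors, protocadherins and UGT2 genes are empty over 540 to 1229 kb in a row.

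By fold and width the 71 peaks were close to all peaks of the list. Their median fold over input was 3.28 (interquartile range 2.51 to 4.94, from 2.08 to 11.6) against 3.08 for all peaks (2.42 to 5.70), and their median width was 1906 bp against 1670 bp. A fold of 6 or more was found in 13 of the 71 (18.3%) against 23.2% of all peaks, and a fold below 3 in 33 (46.5%) against 48.2%. A -log10 q of 10 or more was found in 27 (38%) against 36.8%. These shares are near the background. The implied input level, the control level at which the fold and the p-value of a peak fit together, had a median of 6.22 in the cluster peaks and 6.33 in all peaks, and the highest of the 71 was 12.02. By cluster its median ran from 5.22 in the type II keratins to 9.02 at 11q11 to 11q12.1. Its part in the folds was not tested.

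**Figure D4:**
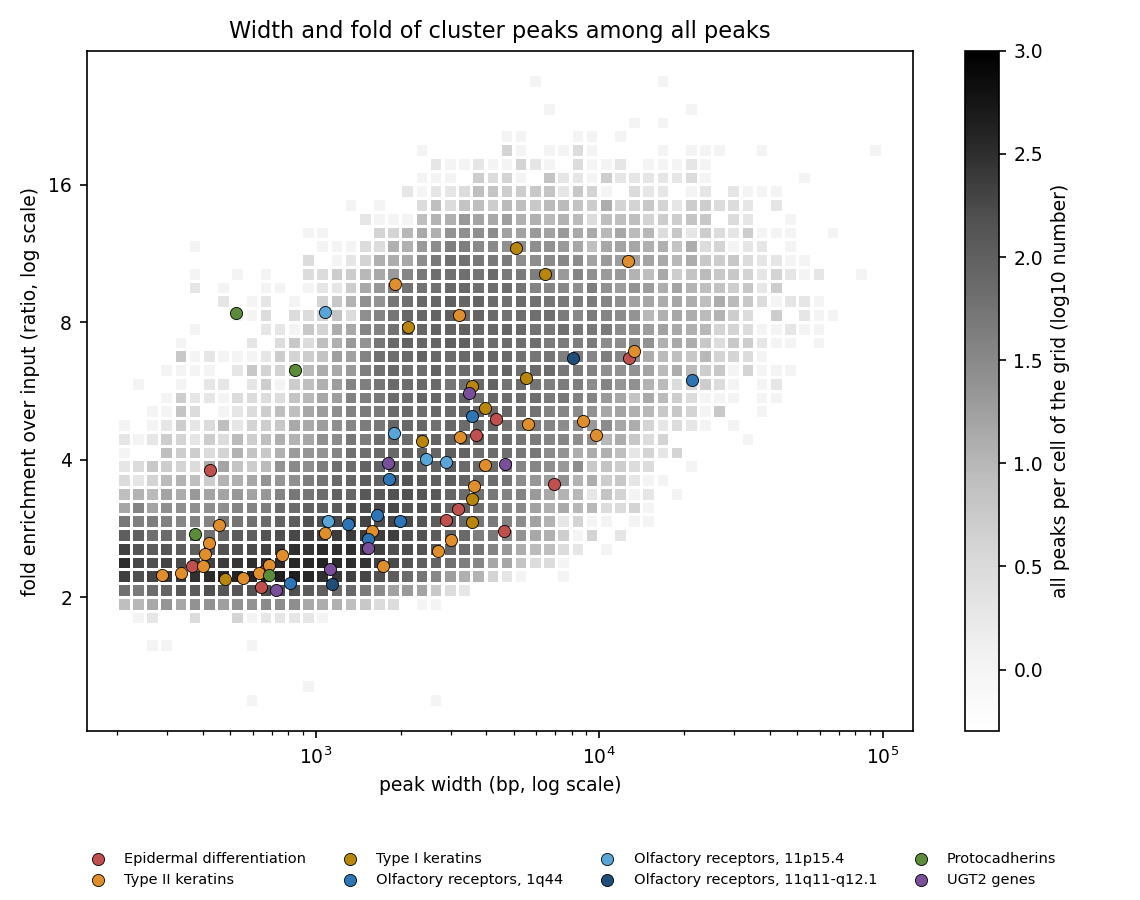
Width (horizontal, bp, log scale) and fold enrichment over input (vertical, log scale) of the 71 peaks, coloured by cluster, over all 52203 peaks in grey (darker cells hold more peaks). Most members lie where peaks are common. Both strong peaks of the protocadherin cluster, of 523 and 843 bp, lie at the narrow edge of peaks with a fold above 6.

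The type II keratins held a broad acetylated block. From 52949253 to 53086147 of chromosome 12, 14 peaks covered 46.9% of 137 kb. The strongest peak of the cluster lay there, at 53019103 to 53031723, with a fold of 10.9, a width of 12621 bp and rank 1740 by fold. The widest of the cluster, at 53048160 to 53061389, measured 13230 bp and reached a fold of 6.92. A second group of 8 peaks spanned 52653780 to 52755220. Its strongest members were narrower, at 52680877 to 52682782 (1906 bp, fold 9.70) and at 52698207 to 52701401 (3195 bp, fold 8.31). The first peak of the cluster (52653780 to 52654234) had a fold of 2.88 and the last (53261704 to 53264717) a fold of 2.68. Between both groups lay the empty 194 kb. Although 4 of the 25 peaks had a fold of 6 or more, 15 had a fold below 3, and the median fold was 2.77. Of all peaks, 23.2% had a fold of 6 or more and 48.2% a fold below 3. Without the most covered 200 kb (52949253 to 53149252), a stretch chosen after its values were seen, the cluster had 20.4 peaks per Mb and a covered share of 3.11%, below the 4.90% of the genome.

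KRT85, a hair keratin of the cortex, was the gene of the clusters with a position in the small hg19 gene sample (52753790 to 52761309 of chromosome 12, minus strand, 9 exons). Its start site, at 52761309, was 6.09 kb from the nearest peak, at 52751589 to 52755220 (3632 bp, fold 3.51, -log10 q 5.95). That peak covered 19.0% of the gene at its 3' end and touched exon 9, the last, and no other exon. The start site itself fell in the empty 194 kb.

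The type I keratin cluster had fewer peaks than the type II cluster, with a median fold of 5.50 over 10 peaks against 2.77. Its strongest peak, at 38800374 to 38805449 of chromosome 17, had a fold of 11.6, the highest of the 71, and was 5076 bp wide. That peak starts 0.374 kb inside the edge of the cluster. It was not assigned to a keratin or to any other gene. The second, at 39460948 to 39467397, had a fold of 10.2 and measured 6450 bp, the widest of the cluster, and the last before the empty 333 kb. The third, at 38974253 to 38976363, had a fold of 7.81. In all, 4 of the 10 peaks had a fold of 6 or more, against 23.2% of all peaks.

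In the epidermal cluster, 8 of 11 peaks (72.7%) lay together in 101 kb, from 152056714 to 152158069 of chromosome 1, and covered 35.5% of it. The strongest and widest peak of the cluster was among them, at 152089283 to 152102041 (12759 bp, fold 6.69). The first peak, at 152056714 to 152061057, had a fold of 4.91, and a peak further in, at 152455250 to 152458922, a fold of 4.53. The last, at 152670364 to 152670728, measured 365 bp and had a fold of 2.34, and the 529 kb behind it were empty up to the edge of the cluster.

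The olfactory receptor clusters together held 15 peaks in 3.77 Mb, 3.98 per Mb, with 1.39% of bases covered. Genes of other families stand among the receptors in the reference order, such as TRIM21, TRIM68 and MMP26 at 11p15.4. None of these peaks was assigned to such a gene or to a receptor gene. At 1q44 the 8 peaks lay in the first 471 kb, and the widest peak of all clusters was the first of them. It spanned 21217 bp (247701285 to 247722501) with a fold of 5.97, rank 437 by width in the genome. The next in fold were 4.98 at 248002912 to 248006459 and 3.64 at 248015140 to 248016947, and the last peak, at 248069670 to 248071321, had a fold of 3.04. At 11p15.4 the strongest of the 5 peaks measured 1082 bp and reached a fold of 8.41 (4414121 to 4415202). Beside it lay a peak with a fold of 2.94 (4417257 to 4418365). The others had folds of 4.03 (4474969 to 4477416), 3.95 (4484361 to 4487251) and 4.59 (4628250 to 4630140). At 11q11 to 11q12.1 both peaks lay in q12.1, 13.2 kb apart. The first (56228607 to 56236682) measured 8076 bp with a fold of 6.68, and the second (56249869 to 56251006) 1138 bp with a fold of 2.14.

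Among the protocadherins 540 kb passed before the first peak, which was also the strongest, at 140699881 to 140700403 of chromosome 5 (523 bp, fold 8.39). The next, at 140705697 to 140706539, measured 843 bp and had a fold of 6.29. The limit of 1000 bp that follows was chosen after their widths were seen. Of the 12125 peaks of the genome with a fold of 6 or more, whose median width was 4089 bp, 1.01% were narrower than 1000 bp, and of the 13 such members the narrow ones were these 2. The other peaks of the cluster, at 140739610 to 140739983 and 140894166 to 140894848, had folds of 2.75 and 2.24. SLC25A2 and TAF7 also stand among the protocadherins in the reference order, and none of the peaks was assigned to a gene. In the UGT2 cluster, 4 of the 6 peaks lay within the first 61.2 kb, among them peaks with folds of 2.08 (69301696 to 69302418), 5.60 (69304511 to 69307993) and 3.93 (69359386 to 69361189). Beyond the empty 680 kb followed a peak of 4647 bp with a fold of 3.93 (70040858 to 70045504), the widest of the cluster, and the last with a fold of 2.57 (70174745 to 70176269). No peak of the UGT2 cluster or of the receptor cluster at 1q44 reached a fold of 6, against 23.2% of all peaks. These clusters hold 6 and 8 peaks, too few to set apart from that share. No peak was assigned to a UGT2 gene.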

How the data were processed

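H3K27ac ChIP and input DNA of LOUCY, 1 library each, were sequenced single-end, per the labels' protocols. Bowtie2 (version not given in the sources used here), MACS2 and hg19 were used, per the submitters' processing notes. Broad peaks were called with MACS2 2.1.0.20140616 against input, per the file headers, with 84 bp tags, a 204 bp fragment length, 1 tag kept per position and a q cutoff of 0.05. Of 62626946 ChIP and 74212738 input tags, 54357332 and 71932640 were kept. The larger library was scaled to the smaller, per the file headers. Each peak carries a deposited fold (a ratio over the local control), a deposited -log10 p-value and a deposited -log10 q-value. These are the authors' values and serve here to describe or filter peaks within their list. The deposited pileup was below 0 throughout and was not used.

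Cluster peaks overlap a window by at least 1 bp, and covered bases were clipped at its edges. The genome is the 22 autosomes and X of the hg19 cytobands in circlize 0.4.16 (3036 Mb, assembly gaps included). Same-length windows and 100 kb bins touching acen, gvar or stalk bands were left out. Implied input levels were solved from fold and Poisson p, with levels above 20 left out of medians. KRT85 was placed with the UCSC gene sample in GenomicFeatures 1.54.1. Gene order and promoters came from RefSeq (GRCh38.p14) and were not joined to peaks. No hg19 sequence was used, so peak sequences are not shown. Calculations were checked on simulated intervals and used scipy 1.17.1, pandas 2.3.3 and numpy 2.4.6 under Python 3.11.15, and matplotlib 3.10.9 drew the plots.

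The clusters, families and measures were chosen with earlier results of these data known. Peaks named are all peaks of a cluster with 5 or fewer, and otherwise the 3 of highest fold, the widest, the first and the last. Genes named are the end members of each family in table order, genes with other symbols among them, and KRT85. Stricter peak thresholds, other overlap rules, trimmed edges and merged peaks were tried as alternatives.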

Additional observations from a re-analysis of the deposited data

How the results depend on the processing

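At stricter thresholds the clusters together kept a similar ratio to the genome while both levels dropped, since weak peaks were removed. Peaks per Mb over all clusters went from 8.24 (0.479 of the genome value) to 4.41 with a -log10 q minimum of 5 (0.523), 3.13 with a minimum of 10 (0.495) and 3.13 with a fold minimum of 4 (0.487). The covered share went from 2.63% to 1.75% with a -log10 q minimum of 10 (0.512 of the genome value). The number of clusters below the genome by peak density was 7, and 6 with the q minimum of 10 or the fold minimum of 4. The type I keratins were then above it, with 7 peaks per Mb against 6.32 and 6.43. By covered share 7 clusters stayed below under every alternative tried but 1. The type II keratins fell below the genome by covered share (3.11%) without their most covered 200 kb, an alternative chosen after seeing the data, as was leaving out that cluster.

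The comparison of median folds depended on the threshold. The number of clusters with a median fold below the genome's was 2, but 5 with the q minimum of 5 (genome median 5.78), 7 with that of 10 (6.84) and 7 with the fold minimum of 4 (6.78). Under these 3 settings the UGT2 median became 3.93, 4.76 and 5.60, the epidermal 4.53, 4.91 and 4.91, and that at 11p15.4 4.31, 6.50 and 4.59. With the q minimum of 10 and the fold minimum of 4, the type I keratins (6.04 in both) and 11q11 to 11q12.1 (6.68 in both) were also below. Trimming clusters by 50 kb put the epidermal median at 3.04, below 3.08. Trimming also lowered the UGT2 cluster from 4.92 to 2.68 peaks per Mb and from 1.09% to 0.712% covered. No peak crossed the edge of a cluster, so assigning peaks by midpoint or only if wholly inside picked the same peaks. These rules could not change a value and say nothing on robustness. Merging within 2000 bp, run for peaks per Mb of single clusters, changed no side of the genome value. A genome without heterochromatic bands, run for the totals over all clusters, changed none either. No paired analysis was possible because each group holds a single library. Sparse clusters rest on 2 to 11 peaks without a threshold, and on fewer at the 3 stricter settings, which limits their medians. With the q minimum of 10, 1 peak was left at 11q11 to 11q12.1, and 2 each at 11p15.4 and in the UGT2 genes. The UGT2 value with the fold minimum of 4 is the fold of its strongest peak alone.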
